A study of Mus musculus with 6 samples.

Results

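Many cytokine receptors are built from paired transmembrane chains, and some chains serve several cytokines. Most of the chains described here signal through Janus kinases and STAT factors, while the IL-17 receptor signals through the adaptor Act1. In the gut they let the epithelium respond to cytokines of nearby lymphoid cells, with antimicrobial, antiviral and secretory programmes as the best known outcomes. Chromatin accessibility at 10 genes for such chains was followed in mouse small intestinal organoids, which are self-organising epithelial cultures. The 10 genes were Il23r, Il12rb2, Il22ra1, Il10rb, Ifnlr1, Ifngr1, Il17ra, Il17rc, Il4ra and Il13ra1.

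Accessibility was measured by ATAC-seq of whole cultures (the enzyme Tn5 tags DNA where chromatin is open) and given as read counts in 200-bp windows. A window belonged to a gene when the nearest end (start or end) of any protein-coding gene was that gene's and lay within 50 kb of the window's centre. This took 29 of 55056 windows, at 9 of the 10 genes. Il12rb2 had none. The windows were chosen by position alone, but the genes were proposed with earlier results of the comparison of RANKL with control libraries known. Their differences between the groups and the calls made on them are therefore a description of these 6 libraries. A window may act on a gene other than its nearest one.

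RANKL organoids (n = 3) had spent 3 days in ENR medium with 3 µM CHIR99021, a GSK3 inhibitor, and 1.5 mM valproic acid, then 1 day in ENR medium alone, and then had 100 ng/ml RANKL for 6 days. RANKL is a TNF family cytokine that drives formation of microfold (M) cells, the antigen-sampling cells of the gut epithelium. Control organoids (n = 3) grew in ENR medium, which holds EGF, Noggin and R-spondin 1, and were taken at day 6 too. Whether controls had also been given CHIR99021 and valproic acid is not stated in the labels, so an effect of RANKL and of that pretreatment cannot be told apart. All libraries came from a single organoid line of a female mouse carrying Lgr5GFPDTR/+, and the replicates were independent differentiation experiments with that line. Library totals were 322173 to 828445 counts in the RANKL group and 455083 to 976881 in the control group, so that 3 counts were worth 3.62 to 9.31 counts per 1000000 (CPM) with RANKL and 3.07 to 6.59 CPM in controls. In a bulk library, a change in the share of a cell type and a change in accessibility within cells cannot be told apart.

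Of the 29 windows, 6 lay within 200 bp of an end of their gene, at Il22ra1, Ifngr1, Il17ra, Il17rc, Il4ra and Il13ra1. Promoter sequences, from RefSeq on GRCm38.p6, matched 8 of the 10 genes; Il10rb and Il17ra had no entry. Below are the 250 bases upstream of the transcription start at the 4 genes whose start windows span the range of behaviours described here. Capitals mark the bases that lie in the counted window, and each line reads 5′ to 3′ on the plus strand. The Ifngr1 sequence is chr10:19591699-19591948, that of Il13ra1 chrX:36111858-36112107, that of Il22ra1 chr4:135727909-135728158 and that of Il4ra chr7:125552021-125552270.
Ifngr1: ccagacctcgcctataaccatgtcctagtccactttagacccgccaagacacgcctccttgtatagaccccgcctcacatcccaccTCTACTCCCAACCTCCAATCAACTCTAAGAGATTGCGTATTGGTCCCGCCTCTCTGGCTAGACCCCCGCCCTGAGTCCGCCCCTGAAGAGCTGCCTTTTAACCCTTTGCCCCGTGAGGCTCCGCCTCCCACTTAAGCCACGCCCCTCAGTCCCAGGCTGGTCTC
Il13ra1: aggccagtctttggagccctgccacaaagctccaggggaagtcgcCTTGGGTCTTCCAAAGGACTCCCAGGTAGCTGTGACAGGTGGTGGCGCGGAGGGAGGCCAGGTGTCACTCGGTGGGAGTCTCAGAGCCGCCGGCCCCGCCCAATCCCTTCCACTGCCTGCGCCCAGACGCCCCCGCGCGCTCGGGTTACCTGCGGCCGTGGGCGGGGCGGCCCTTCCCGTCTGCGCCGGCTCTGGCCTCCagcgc
Il22ra1: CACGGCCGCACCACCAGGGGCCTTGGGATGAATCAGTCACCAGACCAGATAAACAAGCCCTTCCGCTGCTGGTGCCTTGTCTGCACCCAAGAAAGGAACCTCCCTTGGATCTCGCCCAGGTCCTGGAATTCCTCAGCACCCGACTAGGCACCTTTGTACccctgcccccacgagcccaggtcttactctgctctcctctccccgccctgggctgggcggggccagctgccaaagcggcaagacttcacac
Il4ra: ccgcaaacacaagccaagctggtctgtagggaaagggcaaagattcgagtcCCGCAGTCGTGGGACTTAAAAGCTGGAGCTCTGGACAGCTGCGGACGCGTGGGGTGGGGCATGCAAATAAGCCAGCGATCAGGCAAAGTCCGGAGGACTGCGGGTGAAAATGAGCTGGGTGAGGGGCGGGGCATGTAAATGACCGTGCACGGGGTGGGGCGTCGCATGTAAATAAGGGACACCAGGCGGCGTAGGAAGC

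Of these 250 bases, 164 at Ifngr1, 200 at Il13ra1, 159 at Il22ra1 and 199 at Il4ra lay in the counted window. Il13ra1 had the highest share of G and C of the 8 promoters, 70.8%, and Il23r the lowest, 39.6%. The promoters were searched on both strands for 5 motifs: the NF-kB consensus, AP-1 (TGANTCA), the STAT motif GAS (TTCNNNGAA), ISRE (GAAA, any 2 bases, GAAA) and ONECUT (ATTGAT). An AP-1 match, TGAATCA, began 222 bases before the start of Il22ra1, and a GAS match, TTCTCAGAA, began 123 bases before the start of Il12rb2. The other 6 promoters had no match to any of the 5 motifs. Among 32851 promoters of the same length, AP-1 was found in 6.75%, GAS in 7.02%, ONECUT in 6.72%, the NF-kB consensus in 3.90% and ISRE in 2.98%. These 2 matches overlapped no other motif, and a match is only a stretch of letters, not a shown site.

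Accessibility with RANKL was higher at Il23r, lower at Il10rb and Il13ra1, and not called different at the sums of the other 6 genes. A sum adds the counts of all windows of a gene. A call means an adjusted p of at most 0.05 in edgeR's quasi-likelihood test over all 12466 gene sums, or over all 21618 windows, deep enough to test. Of the 9 sums, all tested, 1 was called higher and 2 lower, against 7.03% and 8.28% of all gene sums. Of the 29 windows 18 were tested; 4 were called higher and 1 lower, against 10.0% of all tested windows in each direction. The median log2 fold change was 0.02 over the 9 sums and 0.01 over all gene sums, and 0.22 over the 18 windows and 0.01 over all windows. The groups did not overlap at 9 of the 18 windows, with RANKL above at 7 and below at 2, against 14.7% and 18.6% of all tested windows.

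**Figure D1:**
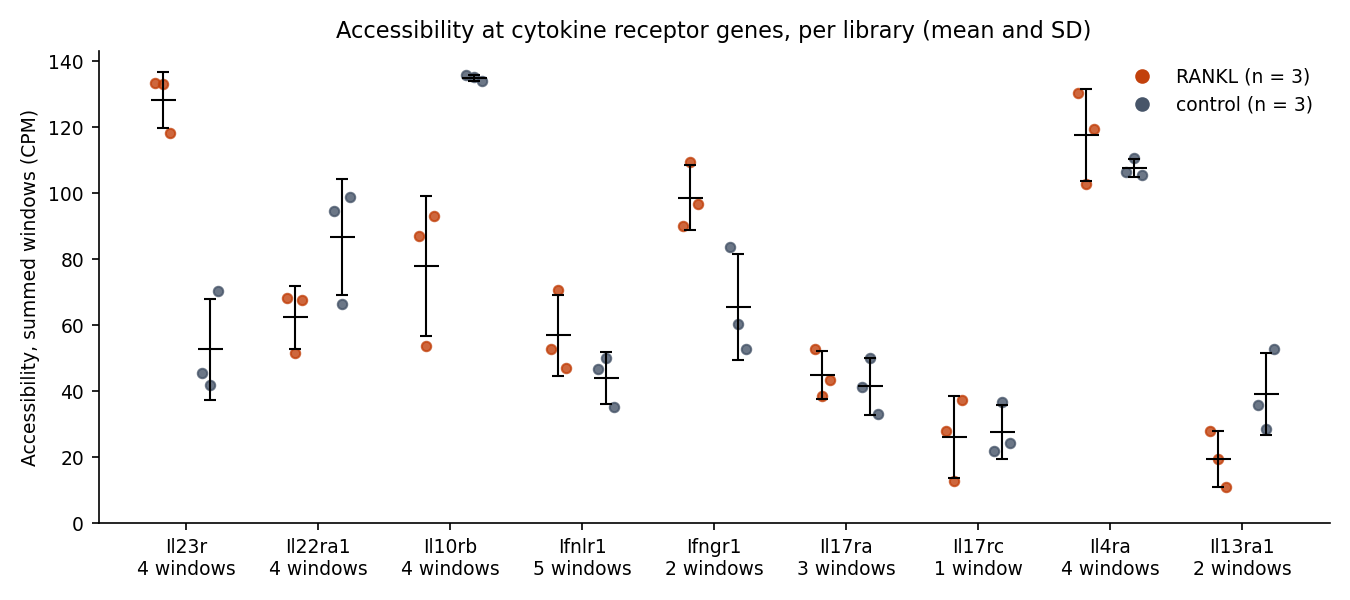
Accessibility summed over the windows of each gene (vertical axis, CPM) in the 3 RANKL libraries (left of each pair) and the 3 control libraries; points are libraries, bars the mean and SD. Il23r lies at 118.3 to 133.5 CPM with RANKL, above all controls, and Il10rb at 53.6 to 92.9 CPM, below all controls.

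Il23r encodes the chain that binds IL-23 together with the product of Il12rb1, and is known mainly from T cells and innate lymphoid cells. It lies at chromosome 6, 67422932 to 67491855, on the minus strand (GRCm38). The sum over its 4 windows was 133.5, 132.9 and 118.3 CPM in RANKL replicates 1, 2 and 3, against 45.6, 42.0 and 70.3 CPM in control replicates 1, 2 and 3. Every RANKL library lay above every control. The mean was 128.2 ± 8.6 CPM with RANKL and 52.6 ± 15.4 CPM in controls (SD, n = 3 each), a ratio of 2.44 and a log2 fold change of 1.33 ± 0.20 (SE). By log2 fold change it stood at place 218 of the 12466 tested sums, counted from the highest. The sum was called higher in each of the 14 alternative settings tried; from windows within 5 kb, where the window near the 3′ end alone remains, it was 2.87.

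The 3 windows inside the Il23r gene were each called higher. The window at 67427799 to 67427998, close to the gene's 3′ end and 63957 bp downstream of its transcription start, changed most. It had 24.8, 42.9 and 33.8 CPM in RANKL replicates 1, 2 and 3 (8, 20 and 28 counts), against 2.17, 4.09 and 8.79 CPM in control replicates 1, 2 and 3 (2, 4 and 4 counts). The groups were far apart, the controls lying near the level of 3 counts, and the log2 fold change was 2.99 ± 0.51 (SE). The window at 67459460 to 67459659, 32296 bp downstream of the start, had 31.0, 23.6 and 15.7 CPM with RANKL and 7.60, 2.05 and 4.39 CPM in controls, again without overlap. These were 10, 11 and 13 counts with RANKL and 7, 2 and 2 in controls, so control replicates 2 and 3 lay below 3 counts. The log2 fold change of this window was 2.22 ± 0.59 (SE). The call ended without control replicate 2 (1.76) and with loess offsets, which remove a trend of the fold with abundance (1.22).

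The window between them, at 67438030 to 67438229, was already open in controls. It had 52.8, 60.02 and 62.8 CPM in RANKL replicates 1, 2 and 3, against 24.98, 31.7 and 52.7 CPM in control replicates 1, 2 and 3. Control replicate 3 and RANKL replicate 1 were nearly equal, so the groups only just separated, and the log2 fold change was 0.87 ± 0.25 (SE). That call ended without RANKL replicate 3 (0.80), without control replicate 1 (0.65) and with DESeq2 (0.84). The remaining window, 19069 bp upstream of the start, was below the depth filter and had 24.8, 6.43 and 6.04 CPM with RANKL and 10.9, 4.09 and 4.39 CPM in controls, which overlapped. No window lay at the Il23r start itself.

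**Figure D2:**
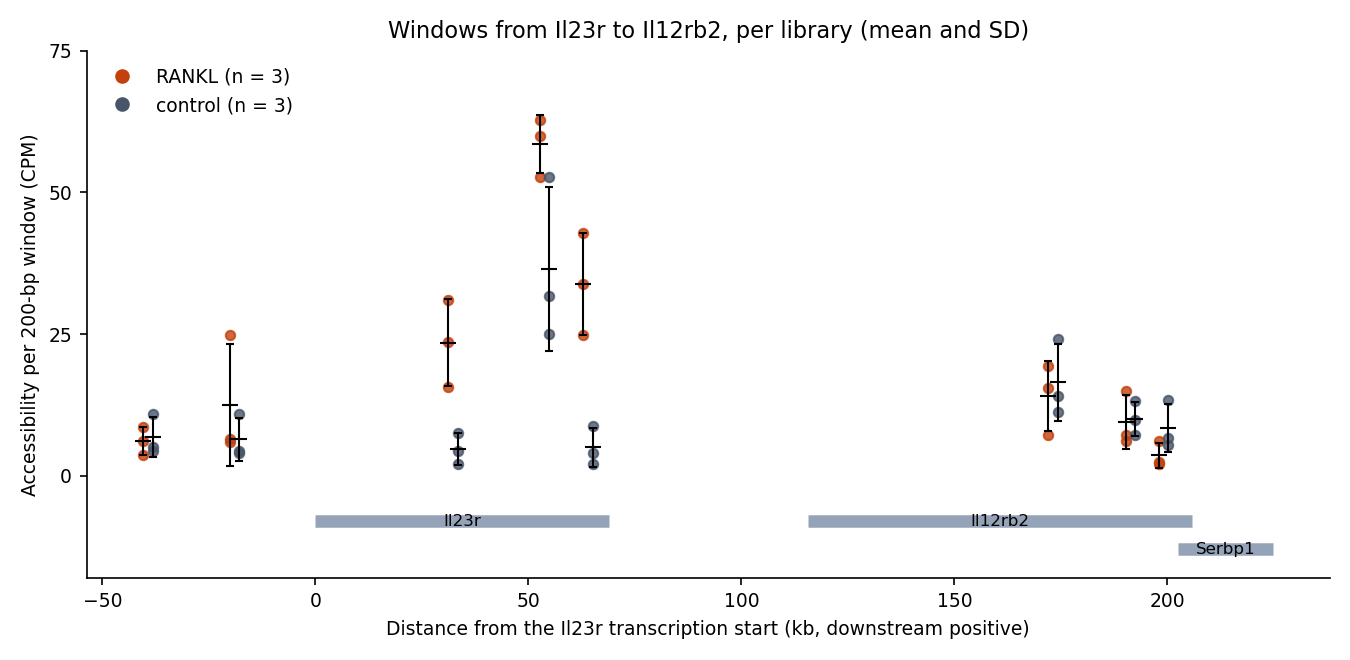
Accessibility per 200-bp window (vertical axis, CPM) against the distance from the Il23r transcription start (horizontal axis, kb, downstream positive); RANKL libraries are drawn just left of control libraries, bars are the mean and SD (n = 3 each), and grey bars mark gene bodies. The 3 windows inside Il23r are higher with RANKL, while the 3 windows inside Il12rb2 overlap between the groups.

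Il12rb2 encodes the chain that pairs with the product of Il12rb1 to bind IL-12, and is known from T cells and natural killer cells. It is the next gene downstream of Il23r, at chromosome 6, 67285986 to 67376293, with 46638 bp between them. Its body held 3 windows, but each was nearer to an end of the overlapping gene Serbp1 and so outside the rule. At 67318606 to 67318805 there were 15.5, 19.3 and 7.24 CPM in RANKL replicates 1, 2 and 3, against 14.1, 11.3 and 24.2 CPM in control replicates 1, 2 and 3. The log2 fold change there was -0.21 ± 0.53 (SE) and was not called. The other windows, at 67292717 and 67300388, averaged 3.59 ± 2.27 and 9.49 ± 4.81 CPM with RANKL and 8.44 ± 4.25 and 10.0 ± 3.0 CPM in controls (SD, n = 3 each), and both overlapped between the groups. All 3 windows inside Il12rb2 thus overlapped between the groups, unlike those inside Il23r, and the difference between the genes was not tested.

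The genes whose sums over the 6 libraries ran most like that of Il23r were Gm51415, Ctsd and Ttll12. Likeness was the Euclidean distance between log2(CPM + 1) values centred per gene, which was 0.287, 0.358 and 0.359 for these genes, the smallest of 12465. Ctsd, which encodes the lysosomal protease cathepsin D, had 74.5, 64.3 and 72.4 CPM with RANKL and 27.2, 26.6 and 35.2 CPM in controls.

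Il10rb encodes a chain shared by the receptors for IL-10, IL-22 and the type III interferons. It lies at chromosome 16, 91406157 to 91425834, in a cluster with Ifnar2, Ifnar1 and Ifngr2. The sum over its 4 windows was 86.9, 53.6 and 92.9 CPM in RANKL replicates 1, 2 and 3, against 135.8, 135.1 and 134.0 CPM in control replicates 1, 2 and 3. All RANKL libraries were lower, and the controls were nearly equal while RANKL replicate 2 was the lowest. The mean was 77.8 ± 21.2 CPM with RANKL and 135.0 ± 0.9 CPM in controls (SD, n = 3 each), and the log2 fold change was -0.78 ± 0.18 (SE). The call ended from windows within 5 kb alone (-0.83).

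All 3 tested windows of Il10rb had negative log2 fold changes, of which 1 was called. That window, at 91452468 to 91452667 26733 bp beyond Il10rb on the side of Ifnar1, had 18.6, 23.6 and 33.8 CPM with RANKL and 55.4, 46.1 and 63.7 CPM in controls, with no overlap. Its log2 fold change was -0.91 ± 0.28 (SE), and the call ended with DESeq2 (-0.95). The window 2020 bp inside the gene, at 91408078 to 91408277, had 27.9, 10.7 and 25.3 CPM with RANKL and 31.5, 39.9 and 39.6 CPM in controls. There too RANKL lay below without overlap, but the log2 fold change of -0.72 ± 0.34 (SE) was not called. This window is almost as near to Ifnar2, whose nearest end is 2588 bp away.

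The neighbours of Il10rb in the cluster, from a list of 26 other cytokine receptor chains, did not move together. Ifnar2, a chain of the type I interferon receptor, averaged 68.3 ± 16.7 CPM with RANKL and 27.0 ± 2.6 CPM in controls (SD, n = 3 each), with an edgeR adjusted p of 9.989e-05 (log2 fold change 1.28 ± 0.27, SE). Ifngr2, the signalling chain of the interferon gamma receptor, averaged 76.5 ± 13.2 CPM with RANKL and 117.3 ± 17.1 CPM in controls, with an edgeR adjusted p of 0.0113 (log2 fold change -0.60 ± 0.18, SE). Ifnar1 had a log2 fold change of 0.30 ± 0.17 (SE) and was not called.

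Il22ra1 encodes the chain that pairs with Il10rb to bind IL-22, a cytokine known for inducing antimicrobial proteins in the gut. It lies at chromosome 4, 135728159 to 135755383, next to Ifnlr1. Its 4 windows summed to 68.3, 51.4 and 67.6 CPM in RANKL replicates 1, 2 and 3, against 94.5, 66.5 and 98.9 CPM in control replicates 1, 2 and 3. Control replicate 2 lay within the RANKL range. The log2 fold change was -0.45 ± 0.21 (SE), which was not called, and without control replicate 2 it was -0.65 and called. The start window had 40.4, 30.0 and 32.6 CPM with RANKL and 41.3, 31.7 and 54.9 CPM in controls (-0.23 ± 0.29, log2 fold change and SE), so the start itself overlapped. Too shallow to test was the window 11702 bp inside, which had 3.10, 0 and 6.04 CPM with RANKL and 18.5, 6.14 and 8.79 CPM in controls, all RANKL libraries being lower.

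Ifnlr1 encodes the chain that binds type III interferons, which are known for antiviral defence of epithelia. It lies at chromosome 4, 135686457 to 135708181, and had the lowest level per window of the 9 genes in control libraries. Its 5 windows summed to 52.8, 70.7 and 47.1 CPM in RANKL replicates 1, 2 and 3, against 46.7, 50.2 and 35.2 CPM in control replicates 1, 2 and 3. The groups overlapped, and the log2 fold change of 0.27 ± 0.25 (SE) was not called. Only the window 24903 bp upstream of the start was deep enough to test. It had 18.6, 27.9 and 16.9 CPM with RANKL and 14.1, 5.12 and 8.79 CPM in controls, without overlap, and its log2 fold change of 1.18 ± 0.52 (SE) was not called.

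Ifngr1 encodes the ligand-binding chain of the interferon gamma receptor. It lies at chromosome 10, 19591949 to 19610229. Its start window, at 19591785 to 19591984 and covering the capitals of the sequence above, had 74.5, 92.2 and 88.1 CPM in RANKL replicates 1, 2 and 3, against 64.1, 56.3 and 50.5 CPM in control replicates 1, 2 and 3. The groups did not overlap, and this window had the highest mean of all 29 in both groups. The log2 fold change of 0.62 ± 0.19 (SE) was called, and it was the only one called of the 6 windows within 200 bp of a gene end, where 9.57% of all such windows were called higher and 2.34% lower. The call ended without RANKL replicate 2 (0.57), RANKL replicate 3 (0.59) or control replicate 2 (0.56), and with DESeq2 (0.63).

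The other window of Ifngr1, 10981 bp upstream, had 15.5, 17.1 and 8.45 CPM with RANKL and 19.6, 4.09 and 2.197 CPM in controls, which overlapped. The sum of both windows averaged 98.6 ± 9.8 CPM with RANKL and 65.6 ± 16.1 CPM in controls (SD, n = 3 each), without overlap. Its log2 fold change of 0.53 ± 0.20 (SE) was not called. Whether it was called depended on the setting. It was called with median-ratio size factors (0.53), with loess offsets (0.55) and with the experiment number as a block (0.59). Calls were also made without RANKL replicate 1 (0.57) and without control replicate 1 (0.76). The fold change was smaller and not called without RANKL replicate 2 (0.45), control replicate 2 (0.42) or control replicate 3 (0.44), and from windows within 200 kb (0.20). Nor was the sum called with DESeq2 (0.54), without RANKL replicate 3 (0.56) or without the depth filter (0.53). From windows within 5 kb (0.50) and by the nearest gene body (0.52) there was no call either.

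**Figure D3:**
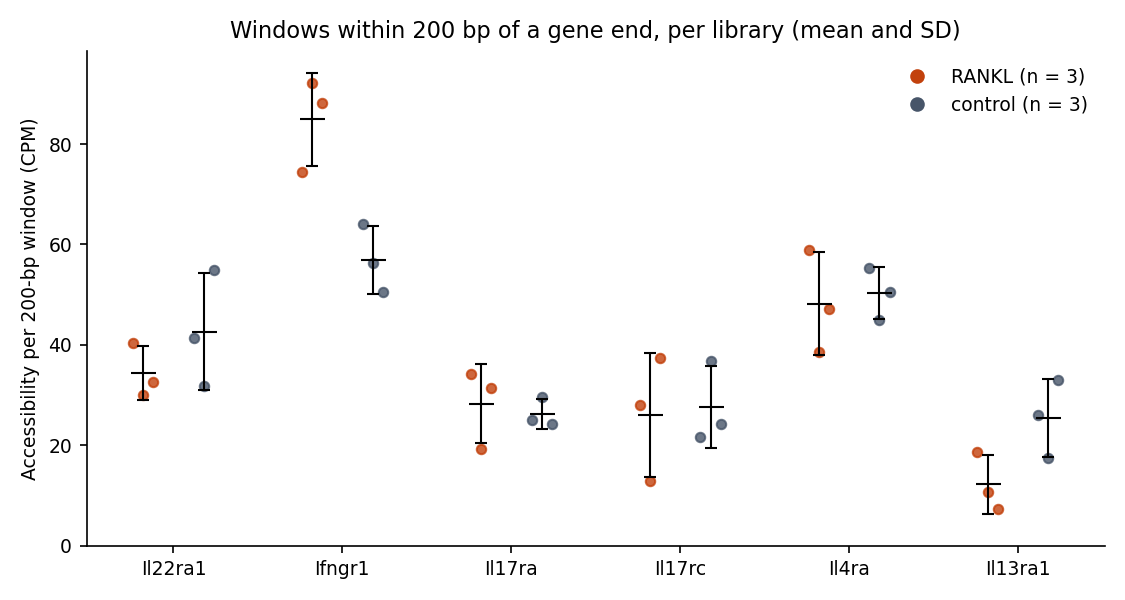
Accessibility in the 6 windows within 200 bp of a gene end (vertical axis, CPM) in the 3 RANKL libraries (left of each pair) and the 3 control libraries; points are libraries, bars the mean and SD. Ifngr1 separates upward (74.5 to 92.2 CPM with RANKL, 50.5 to 64.1 CPM in controls), and the other 5 overlap.

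Il17ra and Il17rc encode the chains of the receptor for IL-17A and IL-17F, cytokines known for inducing chemokines and antimicrobial defence in epithelia. The Il17ra window at the gene's end, chromosome 6, 120463079 to 120463278, had 34.1, 19.3 and 31.4 CPM with RANKL and 24.98, 29.7 and 24.2 CPM in controls. The groups overlapped (log2 fold change 0.14 ± 0.35, SE). The sum over the 3 windows of Il17ra had a log2 fold change of 0.02 ± 0.28 (SE). Il17rc had a single window, at chromosome 6, 113471319 to 113471518, which also lies 660 bp from Il17re, the gene for another IL-17 receptor chain. It had 27.9, 12.9 and 37.4 CPM with RANKL and 21.7, 36.9 and 24.2 CPM in controls, with a log2 fold change of 0.03 ± 0.34 (SE). Neither gene was called, and errors of this size leave room for changes in either direction.

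Il4ra and Il13ra1 encode the chains of the type II IL-4 receptor, through which IL-4 and IL-13 act on epithelial cells. Il4ra lies at chromosome 7, 125552271 to 125579474, and its 4 windows summed to 130.4, 102.9 and 119.5 CPM with RANKL and 106.4, 110.6 and 105.5 CPM in controls. The log2 fold change of 0.09 ± 0.17 (SE) had the smallest error of the 9 sums and was not called. The start window had 59.0, 38.6 and 47.1 CPM with RANKL and 55.4, 45.0 and 50.5 CPM in controls, and overlapped. At another 2 windows of Il4ra all RANKL libraries lay above all controls, by narrow margins and without a call. Such a separation was seen at 14.7% of all tested windows. The window 9217 bp inside had 46.6, 42.9 and 44.7 CPM with RANKL and 30.4, 40.9 and 33.0 CPM in controls (log2 fold change 0.39 ± 0.28, SE). The window 2104 bp beyond the 3′ end had 18.6, 19.3 and 16.9 CPM with RANKL and 16.3, 8.19 and 10.99 CPM in controls (0.64 ± 0.51).

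Il13ra1, on the X chromosome at 36112108 to 36171262, was called lower as a sum. Its 2 windows summed to 27.9, 19.3 and 10.9 CPM in RANKL replicates 1, 2 and 3, against 35.8, 28.7 and 52.7 CPM in control replicates 1, 2 and 3. In the same order these were 9, 9 and 9 counts with RANKL and 33, 28 and 24 counts in controls. The groups did not overlap, by a narrow margin, and the log2 fold change was -1.12 ± 0.39 (SE). The call ended without RANKL replicate 2 (-1.21), RANKL replicate 3 (-0.72), control replicate 1 (-1.16) or control replicate 3 (-0.91), with DESeq2 (-1.12) and from windows within 5 kb (-1.23). The start window had 18.6, 10.7 and 7.24 CPM with RANKL and 26.1, 17.4 and 33.0 CPM in controls, a log2 fold change of -1.11 ± 0.47 (SE) that was not called. It was called without RANKL replicate 1 (-1.44) and was -0.74 without RANKL replicate 3. Its window 17459 bp inside the gene, below the filter, had 9.31, 8.57 and 3.62 CPM with RANKL and 9.78, 11.3 and 19.8 CPM in controls.

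**Figure D4:**
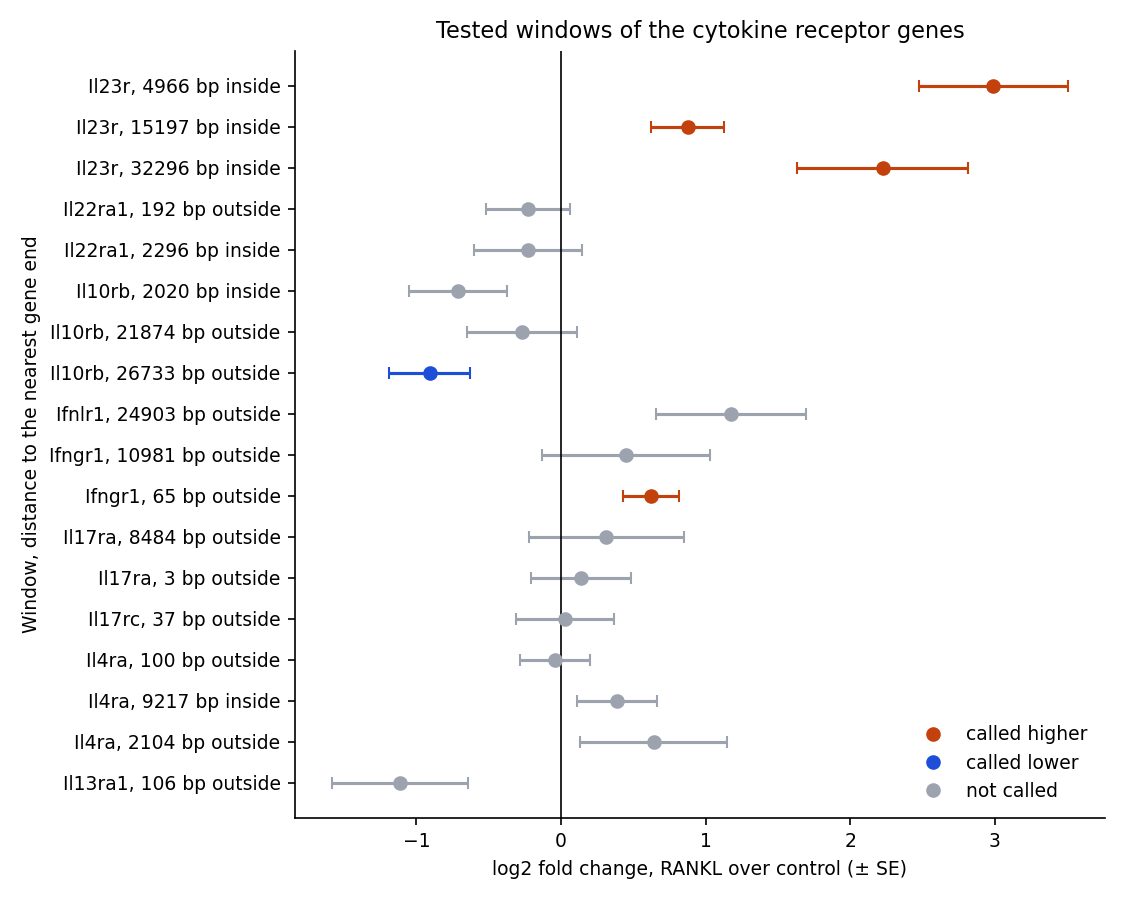
The log2 fold change of RANKL over control (horizontal axis, ± SE) in the 18 tested windows, each row a window with its distance to the nearest gene end. The 3 windows inside Il23r and the Ifngr1 start window are called higher, and the Il10rb window 26733 bp outside the gene is called lower.

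The 11 windows below the depth filter held 0 to 25 counts per library. Their mean was higher with RANKL in 3 and lower in 8, and in 2 of them all RANKL libraries lay below all controls. The same shares over all windows below the filter were not computed, so these counts have no background beside them.

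The order of the genes by level per window differed between the groups, windows being of the same width. With RANKL, Ifngr1 was highest at 49.3 ± 4.9 CPM per window, and its lowest library, at 45.01 CPM, lay above every library of the other 8 genes. Il23r came next at 32.1 ± 2.2 CPM, then Il4ra, Il17rc, Il10rb, Il22ra1, Il17ra and Ifnlr1, and Il13ra1 was lowest at 9.68 ± 4.27 CPM. From Il23r downward each gene overlapped the next. In controls, Il10rb at 33.7 ± 0.2 CPM and Ifngr1 at 32.8 ± 8.0 CPM led and overlapped, followed by Il17rc, Il4ra, Il22ra1, Il13ra1, Il17ra, Il23r at 13.2 ± 3.9 CPM and Ifnlr1 at 8.80 ± 1.57 CPM (SD, n = 3 each). There Il4ra lay above Il22ra1 and Il23r above Ifnlr1 without overlap, and all other neighbours in the order overlapped.

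A second deposited table covered 2 kb around the same centres, in the same libraries. The 2-kb counts include those of the central 200 bp, so the 2 measures are not independent and a shared direction is partly built in. At 17 of the 18 tested windows the mean 2-kb CPM changed in the same direction as the 200-bp CPM. The same share over all tested windows was not computed. The groups did not overlap at 9, with RANKL above at 5 and below at 4, against 13.4% and 25.3% of the 2-kb windows around all tested windows. The Il23r window near the 3′ end had 22.6, 24.0 and 23.9 CPM per 2 kb with RANKL and 2.67, 3.27 and 5.31 CPM in controls. The groups were far apart, but the central 200 bp held 51.9% of these 2-kb counts with RANKL and 50.0% in controls. At the Ifngr1 start the 2-kb window had 43.0, 72.0 and 64.3 CPM with RANKL and 70.3, 57.6 and 50.4 CPM in controls, which overlapped. There the central 200 bp held 49.1% of the 2-kb counts with RANKL and 38.5% in controls, whereas over all windows they held 33.9% to 36.5% in RANKL libraries and 39.9% to 41.0% in control libraries. The Il22ra1 start, which overlapped in 200 bp, had 29.4, 22.5 and 27.8 CPM per 2 kb with RANKL and 36.9, 33.1 and 40.7 CPM in controls, without overlap.

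**Figure D5:**
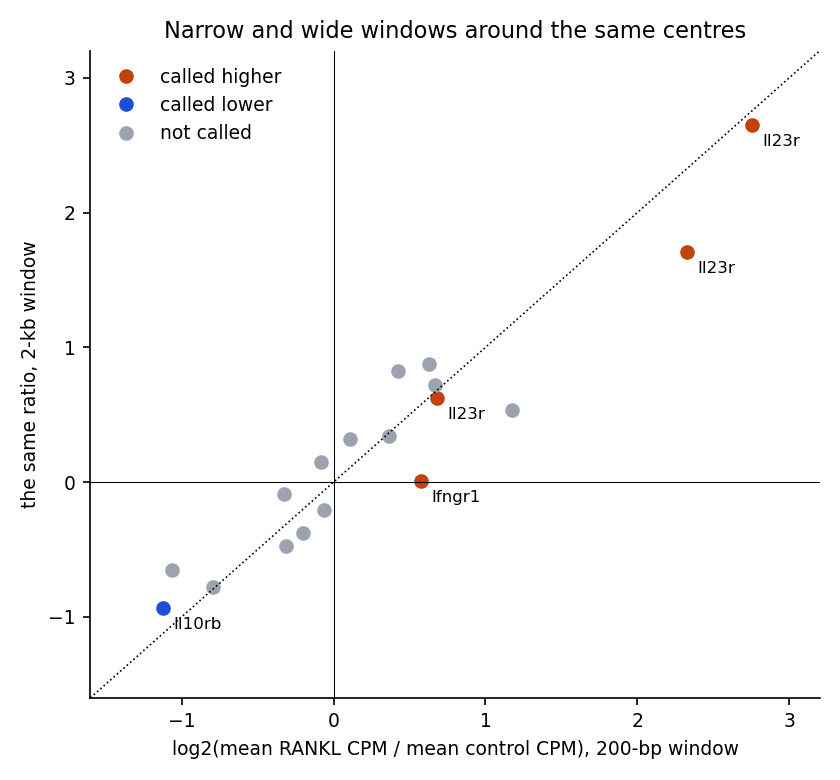
The log2 ratio of mean RANKL CPM over mean control CPM in the 2-kb window (vertical axis) against that in the 200-bp window (horizontal axis) for the 18 tested windows; the dotted line marks equal ratios. The 3 labelled Il23r windows are above 0 on both axes, the labelled Il10rb window is below 0 on both, and the Ifngr1 start window is near 0 in 2 kb.

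Of the 26 other cytokine receptor chains 16 were tested as sums. Of these 1 rose, 2 fell and 13 were not called, with a median log2 fold change of 0.07. Among all 12466 gene sums 7.03% were called higher and 8.28% lower, with a median of 0.01. Il1rap, the shared accessory chain of the IL-1 receptor family, fell by 0.97 on the log2 scale, averaging 92.8 ± 6.1 CPM with RANKL and 180.1 ± 24.7 CPM in controls (SD, n = 3 each, edgeR adjusted p = 1.452e-07). Il18r1, the ligand-binding chain of the IL-18 receptor, averaged 22.5 ± 7.2 CPM with RANKL and 9.35 ± 5.23 CPM in controls and was not called (edgeR adjusted p = 0.0877). Il12rb1, whose product completes the receptors of both IL-23 and IL-12, averaged 20.2 ± 12.8 CPM with RANKL and 24.6 ± 1.9 CPM in controls and was not called (chosen after its values were seen).

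Of 15 tested genes for signal proteins of these receptors 1 rose, 3 fell and 11 were not called (median log2 fold change 0.02). The shares over all gene sums were 7.03% higher and 8.28% lower. Traf3ip2, which encodes the IL-17 receptor adaptor Act1, averaged 82.8 ± 12.7 CPM with RANKL and 132.1 ± 33.2 CPM in controls, with an edgeR adjusted p of 0.0006187 (log2 fold change -0.73 ± 0.17, SE). Traf3, which restrains IL-17 and noncanonical NF-kB signalling, rose by 0.71 ± 0.22 on the log2 scale (SE; edgeR adjusted p of 0.0144). Socs2, a feedback inhibitor, fell by 0.63 ± 0.22 on the log2 scale (SE; edgeR adjusted p of 0.0300). Jak1, a kinase used by many of these receptors, fell by 0.42 ± 0.15 (SE; edgeR adjusted p of 0.0445).

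Of 32 genes known as epithelial targets of these receptors 15 were tested. Among them 1 rose, 1 fell and 13 were not called (median log2 fold change 0.13), against 7.03% higher and 8.28% lower over all gene sums. Retnlb, a goblet cell gene induced by IL-13, averaged 11.1 ± 4.2 CPM with RANKL and 43.0 ± 8.5 CPM in controls, with an edgeR adjusted p of 0.0001596 (log2 fold change -1.86 ± 0.40, SE). Cxcl10, an interferon gamma target, averaged 83.4 ± 23.8 CPM with RANKL and 48.1 ± 12.6 CPM in controls, with an edgeR adjusted p of 0.00521 (log2 fold change 0.77 ± 0.22, SE). RANKL replicate 1, at 55.9 CPM, lay below control replicate 2, at 60.4 CPM, so the groups overlapped at Cxcl10. Reg3g, an antimicrobial lectin gene induced by IL-22, had a log2 fold change of 0.56 ± 0.22 and was not called (SE; edgeR adjusted p of 0.0591). Gbp3, an interferon-induced GTPase gene, had -1.13 ± 0.44 and was not called either (SE; edgeR adjusted p of 0.0624).

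Markers of other cells were looked at because lymphoid cells also carry Il23r and Il12rb2. Of 14 leucocyte markers 7 had a window and 5 were tested, of which 1, Zap70, was higher (log2 fold change 1.20 ± 0.32, SE, edgeR adjusted p = 0.003502). The summed accessibility of the 7 with a window was 127.3 to 205.8 CPM in RANKL libraries and 116.5 to 144.3 CPM in controls, and none was at 0 in all libraries. Ptprc, the pan-leucocyte gene, averaged 38.5 ± 2.0 CPM with RANKL and 39.3 ± 4.2 CPM in controls (SD, n = 3 each; chosen after its values were seen). Among 4 endothelial markers 3 were tested and Cdh5 was higher (1.03 ± 0.36, SE, edgeR adjusted p = 0.0337), while Tek (-0.44 ± 0.21) and Pecam1 (0.09 ± 0.44) were not called. All 4 summed to 111.5 to 161.4 CPM in RANKL libraries and 113.6 to 164.0 CPM in controls. Of 5 fibroblast markers 3 were tested and none was called, and all 5 summed to 77.6 to 120.7 CPM in RANKL libraries and 74.7 to 106.5 CPM in controls. Of 7 epithelial markers 6 were tested and Krt18 was lower (-0.84 ± 0.20, SE, edgeR adjusted p = 0.0005781). The other 5 were not called: Epcam (-0.23), Cldn7 (0.38), Cdh1 (0.06), Vil1 (0.05) and Krt8 (0.01). The median of the 6 was 0.03, and all 7 summed to 552.8 to 632.3 CPM in RANKL libraries and 607.0 to 665.8 CPM in controls. For comparison with these marker lists, 7.03% of all gene sums were called higher and 8.28% lower. The part of other cells in the Il23r difference was not tested.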

How the data were processed

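Bulk ATAC-seq libraries of 50000 cells, read at 38 bp, were made from 3 RANKL and 3 control organoid cultures, per the labels' protocols. The main measurement was the deposited raw count per 200-bp window (55056 windows). The authors also deposited a score for 2 kb around 55050 of these centres, which the values show to be ln(count + 1), standardised per library. Undoing this gave 2-kb counts at most 0.00743 from a whole number, used only to describe levels. DESeq2 1.34.0, MACS2 2.2.7, Picard, BWA 0.7.17 and fastp 0.20.1 appear in the submitters' processing notes, with builds GRCm38 and mm10. No source used here says how windows were chosen, whether duplicates were removed or whether reads were shifted for the Tn5 cut. Centres are at least 4003 bp apart, so parts of a broad open region can go uncounted.

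Positions are printed 1-based, the files being read as 0-based. The 21900 protein-coding genes were placed by RefSeq's GRCm38.p6 annotation, and transcription starts and strands by its promoters; exons and introns were not told apart. CPM divides by a library's total over all windows. Both kinds of value were tested in edgeR 4.0.16 in R 4.3.3 (TMM, filterByExpr, robust quasi-likelihood fit, no covariates, Benjamini-Hochberg adjustment, threshold 0.05); SE is the absolute log2 fold change over the root of F. The test was also run on counts simulated with dispersions fitted to these data and 200 changed features, and no result here rests on that run. Genes and lists were chosen with earlier results of these data known; named were all 10 genes, up to 4 genes of each other list by smallest adjusted p, the 3 genes most like Il23r, and the genes neighbouring the receptor genes' windows at a shared locus, such as Ifnar1. The experiment numbers run alike in both groups but were not taken as pairing, and the fit had no block. Alternatives were DESeq2 1.42.0, median-ratio factors, loess offsets, no filter, the replicate block, leaving out each library, and other distances or the nearest gene body.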

Additional observations from a re-analysis of the deposited data

How the results depend on the processing

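Of the 9 sums and 18 windows, Il23r as a sum and its window 4966 bp from a gene end were called higher in every alternative run for them. Calls at the receptor genes, with 4 windows higher, 1 lower, 1 sum higher and 2 lower as reported, changed as follows. DESeq2 called 2 windows higher and 0 lower and 1 sum lower. Median-ratio factors, the replicate block and loess offsets each called 2 sums higher, Ifngr1 joining, and windows within 5 kb left 0 sums lower. Without each library in turn, they numbered 2 to 4 windows higher, 1 to 2 lower, 1 to 2 sums higher and 1 to 3 lower. Over all features, 2166 windows were called higher and 2169 lower, and 876 sums higher and 1032 lower. DESeq2 gave 2211 and 989 windows and 474 and 463 sums, no filter gave 3204 and 1973 windows, and windows within 5 kb gave 384 and 501 sums. Leaving out a library gave 1337 to 2802 windows higher, 1475 to 2229 lower, 544 to 848 sums higher and 677 to 934 lower. Directions turned only at results that were not called. With loess offsets these were the Ifngr1 window 10981 bp away (-0.95), the Il17ra window 8484 bp away (-0.40) and the Il17ra sum (-0.049). The replicate block turned the Il17rc window (-0.077) and changed no call at these genes but that of the Ifngr1 sum (0.59). Over all features it gave 1807 windows higher and 1827 lower, and 712 sums higher and 876 lower. Same-numbered libraries did not deviate together (r = -0.03, 0.02 and -0.01 over 21618 windows). In these deviations no RANKL library correlated best with the control of its own number. Of the controls only replicate 2 correlated best with its own number, so the numbers are not shown to pair the libraries. Separately, windows within 5 kb turned the Il4ra sum (-0.0015). Without a library, log2 fold changes were -0.50 to 0.32 at the Il17rc window, -0.56 to 0.25 for its sum, -0.013 to 0.32 at the Il17ra window 3 bp away, -0.079 to 0.17 for its sum, and -0.17 to 0.059 at the Il4ra start window. Why results changed was not tested. Depth limits what could be seen: 11 of 29 windows were too shallow to test.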
